A study of Mus musculus with 9 samples.

Results

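Transcript levels of 3 collagen genes, Col4a1, Col4a2 and Col8a1, were followed in cultured mouse satellite cells, the stem cells that repair skeletal muscle. The genes were taken by name, 3 of the 11148 rows of an RNA sequencing table in RPKM (reads per kilobase and per M reads), and each was measured in all 9 libraries. The labels give limb muscle of male and female C57/BL6/DBA mice, pooled and aged 1 to 3 days, as the source, and the cells were plated on dishes coated with collagen. The labels give no knockout, transgene or sorting step. F10 medium, the conventional culture medium, was sampled at passage 0 (P0) only, and its serum and FGF content is not given for that library. T cell medium was sampled at P0, P1, P2 and P15. It was an equal mixture (50:50) of T cell conditioned medium and F10 medium with 15% FBS, plus FGF at 2.5 ng/ml. Cytokine medium was sampled at the same 4 passages. It was F10 medium with 15% FBS, with IL-1α and IL-13 (each 5 ng/ml), TNF-α and IFN-γ (each 10 ng/ml), and with FGF at 2.5 ng/ml. There was 1 library per medium and passage. The labels do not say whether the passages are 1 line of cells followed in time, so p-values measure the spread between these libraries only.

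Collagen IV is the network-forming collagen of basement membranes, the sheet of matrix that encloses each muscle fibre and its satellite cells. Its common form is a trimer of α1 chains, made from Col4a1, and α2 chains, made from Col4a2. Collagen VIII is a short-chain collagen first known from endothelial and corneal basement membranes, and Col8a1 encodes its α1 chain. It is produced by vascular and stromal cells during tissue remodelling.

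Col4a1 (ENSMUSG00000031502) lies on the minus strand of chromosome 8 from 11198423 to 11312826 (mm10). Col4a2 (ENSMUSG00000031503) lies on the plus strand of the same chromosome, from 11312805 to 11449287. The pair is arranged head to head, and in RefSeq (GRCm38.p6) and in GENCODE vM21 the first exons overlap by 22 bases. These bases are shown, in capitals, because they are the place from which both collagen IV genes are read in opposite directions. The stretch is chr8:11312801-11312830 on the plus strand, read in the direction of Col4a2. The capitals lie in the first exons of both genes, and the lower-case bases at each end lie in the first exon of only 1 of them.
Col4a1 and Col4a2 starts: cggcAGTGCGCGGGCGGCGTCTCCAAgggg
Col8a1 (ENSMUSG00000068196) is unlinked to them, on the minus strand of chromosome 16 from 57624258 to 57754737. The 250 bases before its start, chr16:57754738-57754987 read on the minus strand, lie outside the gene and are shown because the gene went the other way from the collagen IV pair between the media. Capitals mark GC boxes (GGGCGG on either strand).
Col8a1 upstream: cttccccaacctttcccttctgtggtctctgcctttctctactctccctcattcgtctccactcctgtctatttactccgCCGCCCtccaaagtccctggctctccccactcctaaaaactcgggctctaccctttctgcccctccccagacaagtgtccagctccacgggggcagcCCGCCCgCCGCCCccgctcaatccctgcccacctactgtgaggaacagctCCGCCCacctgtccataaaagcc

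The RefSeq promoter table held a window of 300 bases, 250 before and 50 after the start, for each of the 3 genes. The windows of Col4a1 and Col4a2 overlap by 78 bases, the same stretch of chromosome 8 read from opposite strands. GC content was 74.0% for Col4a1, 73.7% for Col4a2 and 60.3% for Col8a1, against a median of 52.7% over 32851 windows. Both strands were searched for 8 motifs. The GC box was matched at 4 places for Col8a1, 3 for Col4a2 and 1 for Col4a1, and 35.7% of all windows hold it. The NF-κB type motif, GGGA and CC separated by 4 bases of any kind, had 1 match in the collagen IV windows, at chr8:11312828-11312837, which lies in both, and none in the Col8a1 window (20.7% of all windows). CCAAT was matched once in each collagen IV window and not for Col8a1 (37.4% of all windows). The interferon-type motifs TTCNNNGAA (8.3% of windows) and GAAA repeated after any 2 bases (3.4%), the STAT6 type motif of TTC and GAA separated by any 4 bases (7.0%), the AP-1 motif TGANTCA (7.8%) and TATAAA (13.6%) were matched in none of the 3. A match describes letters only, and binding was not measured.

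Most row names of the table do not go with their values, and the names of these 3 rows were checked from the position of expressed rows along each chromosome. Col4a1 and Col4a2 lie in the first 80 rows of chromosome 8 and Col8a1 in the first 462 of chromosome 16, where names could be used. On chromosome 8 a small shift between row and exon positions was favoured but not settled. The best shift there was 520 bp, with no shift 3.72 log-likelihood units worse. At 520 bp only 20.9% of the exon length of Col4a1 and 19.4% of that of Col4a2 would be counted. The other counted positions would then lie outside the exons of the named gene. On chromosome 16 the best shift was -160 bp, with no shift 5.84 units worse, and 92.4% of the Col8a1 exons would be counted. Levels may therefore be too low or include other sequence, and levels of different genes are compared with that limit. A comparison of 1 row between libraries uses the same positions throughout. For Col4a1 and Col4a2 these positions may lie largely outside their exons. The sources used here do not say whether counting used strand, so reads from bases shared with a gene on the other strand cannot be told apart. At the annotated positions these are the 22 exon bases that Col4a1 and Col4a2 share and 43 exon bases that Col4a2 shares with the antisense gene Gm15419. The antisense gene Gm15418, which overlaps one end of Col4a1, shares 0 exon bases with it. Library depth was 13.0 to 18.4 M reads (first column of each library), estimated from the value of 1 read. Intervals on single libraries rest on this estimate and cover counting error only. Of the satellite cell markers Pax7, Myf5, Myod1, Itga7, Vcam1, Sdc4, Cdh15 and Des, 0 had a usable row name, so the labelled cell type could not be checked from them.

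At P0, the collagen IV genes were highest in F10 medium and lowest in cytokine medium, and Col8a1 had the opposite order. Col4a1 read 36.8 RPKM in F10, 13.1 in T cell and 5.35 in cytokine medium. Col4a2 was at 21.6, 9.42 and 3.72 RPKM in the same libraries. Both chains of collagen IV thus stepped down together over the 3 media.

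Against F10 medium, Col4a1 in T cell medium was at 0.357 of the level (95% counting interval 0.335 to 0.381), a difference of -1.42 on the log2(RPKM + 1) scale, on which all log2 differences here are given. In cytokine medium it was at 0.146 of the F10 level (0.133 to 0.159), a log2 difference of -2.57. For Col4a2 the corresponding fractions were 0.436 (0.401 to 0.473) and 0.172 (0.154 to 0.193), with log2 differences of -1.12 and -2.26. A level at least 2-fold lower than in F10 medium was found for 0.53% of the 3210 rows tested in T cell medium and for 1.62% in cytokine medium. Rows tested were those with a mean of at least 1 RPKM. Both differences share the 1 F10 library, so they are not independent, and there was no replicate of any P0 library.

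Col8a1 was at 7.62 RPKM in F10 medium, its lowest level in the series. It was at 9.69 RPKM in T cell and 29.3 RPKM in cytokine medium. The T cell level was 1.27 times the F10 level (95% counting interval 1.16 to 1.39), and the cytokine level was 3.85 times it (3.57 to 4.15), a log2 difference of 1.82. At least 2-fold higher levels than in F10 medium were found in cytokine medium for 2.18% of rows. The P0 cytokine library therefore held the least collagen IV and the most collagen VIII transcript of the 3 P0 libraries.

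**Figure D1:**
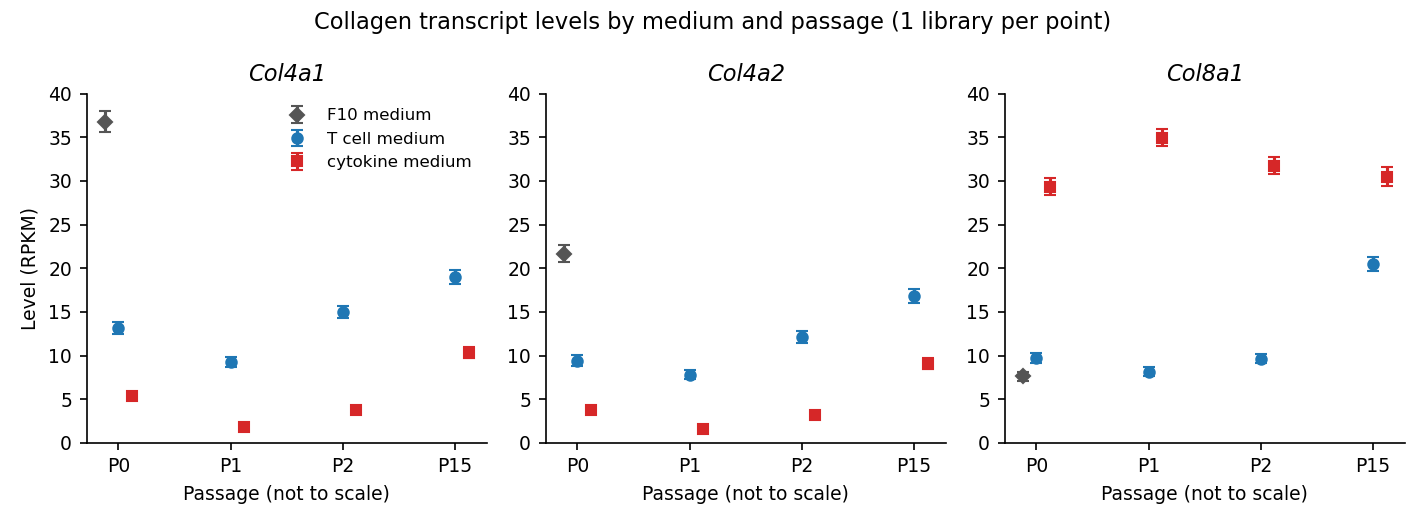
Level (RPKM, y axis) of Col4a1, Col4a2 and Col8a1 at each passage (x axis), 1 library per point, with bars for the 95% counting interval of that library. Cytokine medium (red squares) lies below T cell medium (blue circles) for both collagen IV genes and above it for Col8a1 at every passage, and the F10 library (grey diamond) is the highest for Col4a1 (36.8 RPKM) and the lowest for Col8a1 (7.62 RPKM).

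Between the 2 media sampled at 4 passages, the direction seen at P0 was found at every passage. With passages in rising order, Col4a1 was at 13.1, 9.23, 15.0 and 19.0 RPKM in T cell medium and at 5.35, 1.86, 3.72 and 10.3 RPKM in cytokine medium. The P15 cytokine library lay just above the P1 T cell library, so the media overlapped. Non-overlap with cytokine medium lower was found for 5.51% of rows. Col4a1 was lower in cytokine medium at 4 of 4 passages, as were 17.1% of rows, by a mean log2 difference of -1.39 ± 0.17 (SE; limma adjusted p = 0.0154), with passage as a term in the fit.

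Col4a2 followed its partner. It was at 9.42, 7.82, 12.1 and 16.8 RPKM in T cell medium and at 3.72, 1.58, 3.22 and 9.02 RPKM in cytokine medium. Again only the P15 cytokine library reached the T cell range. The mean log2 difference was -1.34 ± 0.16 (SE; limma adjusted p = 0.0154), lower at 4 of 4 passages.

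Col8a1 rose. It was at 9.69, 8.13, 9.66 and 20.5 RPKM in T cell medium and at 29.3, 34.9, 31.7 and 30.4 RPKM in cytokine medium. Every cytokine library was above every T cell library. Non-overlap with cytokine medium higher was found for 7.38% of rows. Col8a1 was higher in cytokine medium at 4 of 4 passages, as were 22.9% of rows, by a mean log2 difference of 1.41 ± 0.21 (SE; limma adjusted p = 0.0219).

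Of the 3210 rows, limma called 5.73% lower and 5.36% higher in cytokine medium, beside which 2 of the 3 collagens were called lower and 1 higher. The 3 collagens were chosen with earlier results of these data known, so these shares are not a test of them. The median difference over all rows was 0.03. In size, 21 rows had a more negative difference than Col4a1, 23 than Col4a2, and 9 a more positive one than Col8a1. The calls rest on 4 passages. Without P0, P1 or P2 in turn, the adjusted p was 0.0622, 0.0840 and 0.0566 for Col4a1, 0.0622, 0.0832 and 0.0547 for Col4a2, and 0.108, 0.1245 and 0.0674 for Col8a1 in limma. Without P15 all 3 calls held, and without a passage term the calls of Col4a1 and Col4a2 ended (limma adjusted p = 0.0831 and 0.0860) while that of Col8a1 held (0.0311). With no filter on low values, all 3 calls ended at the same differences (limma adjusted p = 0.217, 0.217 and 0.240).

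**Figure D2:**
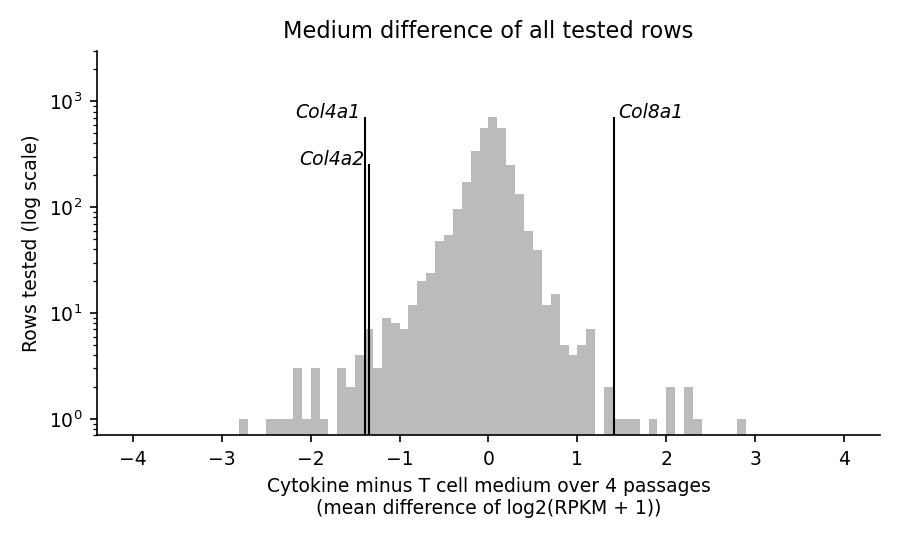
Number of rows tested (y axis, log scale) by their mean difference between cytokine and T cell medium over 4 passages (x axis, log2(RPKM + 1) scale), with vertical lines at the 3 collagens. Col4a1 (-1.39) and Col4a2 (-1.34) lie in the lower tail and Col8a1 (1.41) in the upper tail of the 3210 rows.

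The size of the medium difference was not even over passages. As a ratio of RPKM, T cell over cytokine medium, Col4a1 gave 2.46, 4.96, 4.02 and 1.84 in order of passage. Col4a2 gave 2.53, 4.95, 3.75 and 1.86. The fold of one chain was therefore close to that of the other at each passage. At least 2-fold lower levels in cytokine medium, on the log2(RPKM + 1) scale, were found for 1.59% of rows at P0, for 1.81% at P1 and for 3.36% at P2. Col8a1, with cytokine over T cell medium, gave 3.03, 4.29, 3.29 and 1.49 (95% counting interval at P15 1.41 to 1.57). At least 2-fold higher levels were found for 0.81%, 1.18% and 1.62% of rows at the first 3 of these passages.

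At P15 all 3 differences were the nearest to 0 of the 4 passages. The log2 difference at P15 was -0.82 for Col4a1, -0.83 for Col4a2 and 0.55 for Col8a1. At that passage 0.0623% of rows were at least 2-fold lower and 0.374% at least 2-fold higher in cytokine medium on that scale. The change of the medium difference from P0 to P2 to P15 was 0.76 ± 0.29 (SE) for Col4a1, 0.69 ± 0.27 for Col4a2 and -1.15 ± 0.23 for Col8a1. None of the 3 passed in limma (adjusted p = 0.692, 0.704 and 0.311; unadjusted p = 0.0371, 0.0392 and 0.00205), where 0.218% of rows were called in the positive and 0% in the negative direction (125 and 85 rows at an unadjusted p under 0.05). Of the 7 rows called, 4 were the differentiated muscle genes Actn3, Myom2, Pygm and Srl, with changes of 2.67, 2.18, 2.01 and 2.45 (limma adjusted p = 0.0499 each), toward a smaller difference between the media, as for the collagens. These 4 genes were listed with earlier results of these data known, and their part in the collagen values was not tested. The number of rows called was lower with quantile normalization or without the limma trend, and higher after rescaling to the same sum. Without the passage term no row was called (0 of 3210; 54 and 43 rows at an unadjusted p under 0.05). P15 enters as a single difference. Without P0, P1 or P2 in turn, the change of Col8a1 was -1.25, -1.01 and -1.19, each from fewer earlier passages.

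**Figure D3:**
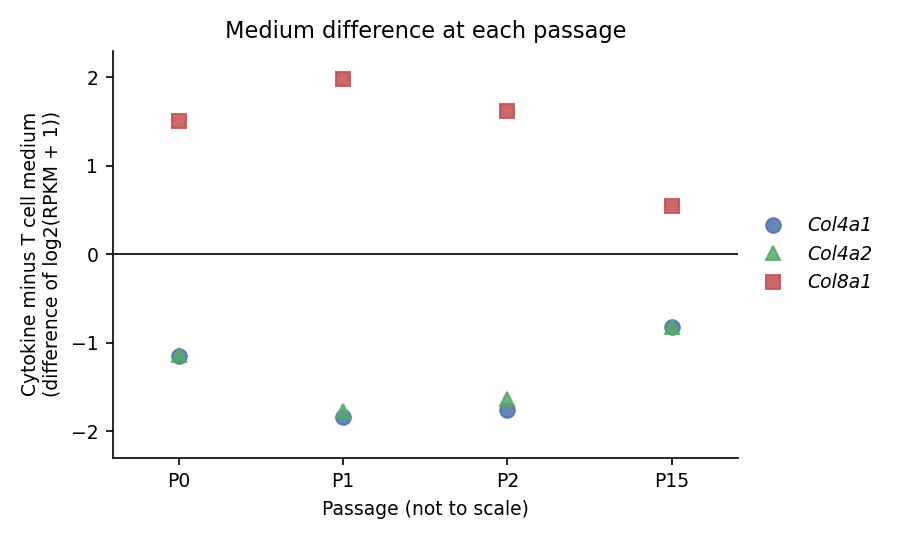
Difference between cytokine and T cell medium (y axis, log2(RPKM + 1) scale) at each passage (x axis), 1 pair of libraries per point. Col4a1 and Col4a2 lie almost on each other below 0 and Col8a1 lies above 0, and the P15 points (-0.82, -0.83 and 0.55) are the closest to 0.

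The P15 libraries were set against the mean of P0 to P2 in each medium. In T cell medium, Col8a1 was at 9.16 ± 0.89 RPKM (SD, n = 3 libraries, P0 to P2) and at 20.5 at P15, 2.24 times that mean. In cytokine medium it was at 32.0 ± 2.80 RPKM (SD, n = 3) and at 30.4 at P15, or 0.951 of the mean. The P15 cytokine value was within the spread of the earlier passages, and the P15 T cell value was outside it. Each P15 value is 1 library, and the share of all rows outside the earlier spread was not counted.

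Collagen IV was higher at P15 than at any earlier passage in both media. In each medium this sets 1 library against 3, and the share of all rows with P15 highest was not counted. Col4a1 went from 12.4 ± 2.93 RPKM (SD, n = 3) at P0 to P2 to 19.0 at P15 in T cell medium, and from 3.64 ± 1.75 to 10.3 in cytokine medium. Col4a2 went from 9.78 ± 2.16 to 16.8 RPKM and from 2.84 ± 1.12 to 9.02 RPKM. P15 was thus 1.52 and 1.72 times the earlier mean in T cell medium and 2.83 and 3.18 times in cytokine medium.

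Tested over both media, P15 differed from P0 to P2 by 0.98 ± 0.30 (SE) for Col4a1, 1.09 ± 0.26 for Col4a2 and 0.51 ± 0.22 for Col8a1. None passed in limma (adjusted p = 0.155, 0.111 and 0.260), where 0.249% of all rows were called in either direction. Only 2 P15 libraries enter this test. For Col8a1 the difference is that of 1 library: without the P15 T cell library it was -0.067, and without the P15 cytokine library it was 1.08 (limma adjusted p = 0.943 and 0.0759). For Col4a1 it was 1.36 without the first and 0.60 without the second.

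P1 was the low point for collagen IV. In each medium the order of the passages from high to low was the same for both chains. Cytokine medium gave P15, P0, P2, P1, and T cell medium gave P15, P2, P0, P1. Over all 9 libraries, Col4a1 and Col4a2 had the same rank in 9 of 9. Col4a1 ranged from 1.86 to 36.8 RPKM (19.7-fold) and Col4a2 from 1.58 to 21.6 RPKM (13.7-fold).

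From high to low, the common order was F10 at P0, then T cell medium (P15, P2, P0), cytokine medium at P15, T cell medium at P1, and cytokine medium (P0, P2, P1). For Col4a1, 1 of the 8 neighbouring pairs in this order had overlapping counting intervals, cytokine P15 and T cell P1. For Col4a2, 2 of 8 did, T cell P0 with cytokine P15 and cytokine P0 with cytokine P2. Col8a1 ranged from 7.62 to 34.9 RPKM (4.58-fold), in the order cytokine medium (P1, P2, P15, P0), T cell medium (P15, P0, P2, P1) and F10 medium. Of its 8 neighbouring pairs, 4 had overlapping intervals: cytokine P2 with P15, cytokine P15 with P0, T cell P0 with P2, and T cell P1 with F10.

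The ratio of Col4a1 to Col4a2 was higher at P0 than later in both media, a pattern described here without a test. Since both rows are divided by their own length and may be counted at shifted positions, the ratio is not a count of chains, and only its change between libraries is read. It was 1.70 in F10 medium at P0 (95% counting interval 1.61 to 1.79). At P0 it was 1.40 in T cell medium (1.28 to 1.52) and 1.44 in cytokine medium (1.26 to 1.64).

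At later passages the ratio was nearer to 1. T cell medium gave 1.18, 1.24 and 1.13 over P1, P2 and P15, and cytokine medium gave 1.18, 1.16 and 1.14. The 6 later libraries spanned 1.13 to 1.24, below the 1.40 to 1.44 of the same media at P0, and the F10 library was above both. At P1 and P2 the intervals overlapped the P0 interval of the same medium. In cytokine medium they were 0.974 to 1.43 and 0.999 to 1.33, and in T cell medium 1.08 to 1.29 and 1.15 to 1.33. At P15 the intervals lay below those of P0 in both media, at 1.06 to 1.20 in T cell and 1.04 to 1.256 in cytokine medium, the latter just under the P0 limit of 1.26.

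Between the media the log2 ratio differed by 0.044, -0.0017, -0.10 and 0.014 in order of passage. The mean was -0.011 ± 0.062 (SD, n = 4 pairs; exact sign-flip permutation test, two-sided, p = 0.875). With 4 pairs, the smallest p this test can give is 2 of 16 sign patterns, which is above 0.05.

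**Figure D4:**
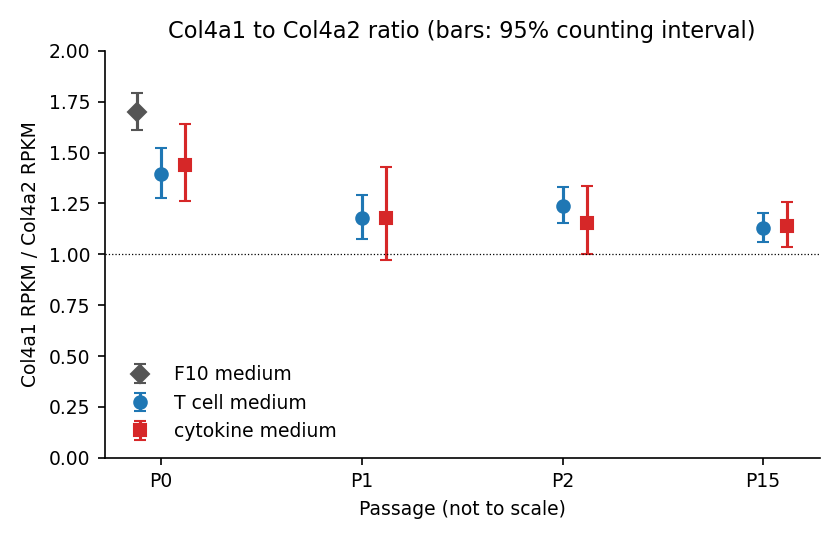
Ratio of Col4a1 RPKM to Col4a2 RPKM (y axis) at each passage (x axis), 1 library per point, with bars for the 95% counting interval. The F10 library is at 1.70, the other P0 libraries are at 1.40 and 1.44, and the 6 libraries from P1 to P15 lie between 1.13 and 1.24.

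The balance of collagen VIII to collagen IV transcript changed more. The ratio of Col8a1 to Col4a1 RPKM was 0.207 in F10 medium. Over the passages it ran 0.737, 0.881, 0.645 and 1.08 with T cell medium, and 5.48, 18.7, 8.53 and 2.96 with cytokine medium. The highest was 90.5 times the lowest. Every cytokine library was above every T cell library, and P15 had the highest value of T cell medium and the lowest of cytokine medium. The separation of the media follows from the opposite directions of Col8a1 and Col4a1, and no share over ratios of other rows was counted. Since rows may be counted at shifted positions, only the change of this ratio between libraries is read.

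Other genes of the matrix were measured where their row names could be used. The limit of shifted positions holds for all other genes named here as well. Over the chromosomes where names were used, the best shift ran from -400 to 520 bp. The share of their own exons that would be counted was not computed for these genes, so their levels may also be too low or include other sequence. Of a list of 47 basement membrane and collagen handling genes, which holds laminins, nidogens, collagen-modifying enzymes and collagen receptors, 2 could be read, Efemp2 and Ltbp3. Efemp2, an extracellular glycoprotein needed for elastic fibres, was at 32.2 RPKM in T cell and 31.8 RPKM in cytokine medium (means of 4 libraries), a log2 difference of -0.02. Ltbp3, which binds latent TGF-β in the matrix, fell from 21.6 to 14.9 RPKM, by a log2 difference of -0.50 ± 0.11 (SE; limma adjusted p = 0.0395). In F10 medium at P0 Ltbp3 was at 30.8 RPKM, its highest level of the 9 libraries. So 1 of the 2 passed, downward, where 5.73% of all rows did. This list was also chosen with earlier results of these data known, so the share is not a test.

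Of 17 matrix proteases and inhibitors, 7 had usable names and 4 were expressed at a mean of 1 RPKM, Mmp3, Mmp10, Mmp13 and Adamts1. Mmp3, stromelysin 1, was called, with a log2 difference of 2.01 ± 0.46 (SE; limma adjusted p = 0.0429). Mmp10, stromelysin 2, and Mmp13, collagenase 3, differed by 2.82 and 2.28 without passing (limma adjusted p = 0.0598 and 0.108), and Adamts1, which cleaves proteoglycans, by 0.08. In sum 1 of 4 passed, upward, where 5.36% of all rows did, with a list median of 2.14 beside 0.03 over all rows. Because earlier results of these data were known when the list was chosen, these shares do not test it. Mmp12, Mmp1a and Adamts5 were below the filter. The level of Mmp3 in cytokine medium was 5.86, 8.08 and 9.42 RPKM from P0 to P2 and 0.446 RPKM at P15. In T cell medium it was 1.78 RPKM at P0 and near the floor later, at 0.162 (P1), 0.0354 (P2) and 0.0736 RPKM (P15).

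Markers of differentiated muscle moved with the medium. Of the 9 on the list, 4 had usable names, Actn3, Myom2, Pygm and Srl. All 4 were called lower in cytokine medium, where 5.73% of all rows were, with a median log2 difference of -2.08. The list was chosen with earlier results of these data known, so setting it beside all rows is not a test. The summed level of the 4 genes was 26.5 to 224.5 RPKM in T cell medium, 11.0 to 27.1 RPKM in cytokine medium and 67.0 RPKM in F10 medium. The lowest T cell value was that of P15, the passage at which both collagen IV genes were at their highest in that medium. Actn3 was there at 10.5 RPKM against 50.8 to 115.5 RPKM at P0 to P2. In cytokine medium the lowest summed value was that of P1, where both collagen IV genes were also at their lowest. Actn3 was there at 4.79 RPKM, against 8.4 RPKM at P15. The part of the 4 muscle genes in the collagen differences was not tested. In bulk RNA, fewer cells of a type and less RNA per cell cannot be told apart. No marker of fibroblasts, endothelial cells, macrophages or T cells on the lists had a usable name, so these cells could not be checked.

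The rows with the pattern most like each collagen were sought among 530 other expressed rows with usable names, by Pearson correlation of log2(RPKM + 1) over the 9 libraries. These are descriptions over 9 points that share media and passages. Col4a1 and Col4a2 had r = 0.988 with each other and -0.726 and -0.693 with Col8a1. Closest to Col4a1 were Hes1, a Notch target (r = 0.903), Cd80, a costimulatory ligand of T cells (0.854), and Phldb2 (0.847). Closest to Col4a2 were Hes1 (0.913), Phldb2 (0.898) and the Wnt receptor gene Fzd1 (0.881).

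Hes1 was at 16.9 RPKM in F10 medium, at 11.3 to 14.8 in T cell medium and at 1.08 to 4.67 in cytokine medium. Phldb2, a membrane-anchoring protein of the cell cortex, was at 19.1 to 29.5 RPKM in T cell and 9.95 to 17.5 RPKM in cytokine medium. Cd80 was highest in F10 medium (5.20 RPKM) and at 0.624 to 4.10 RPKM in the other 8 libraries. The most opposite rows to Col4a1 were Rab1b (-0.961), a GTPase of transport from the endoplasmic reticulum, the cell cycle kinase Cdk6 (-0.945) and Socs1 (-0.925), a feedback inhibitor of cytokine signalling. Rab1b varied little, from 76.4 to 107.9 RPKM, and its log2 difference between the media was 0.19 without passing (limma adjusted p = 0.135). Socs1 was at 7.38 RPKM in F10 medium, at 13.3 to 17.1 RPKM in T cell and at 36.5 to 50.1 RPKM in cytokine medium. Cdk6 was at 10.1 RPKM in F10 medium and, at P15, at 12.5 and 13.4 RPKM in T cell and cytokine medium. The same 3 rows were the most opposite to Col4a2.

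Closest to Col8a1 were Crem, a cAMP-responsive transcription factor (r = 0.971), the transporter gene Abcb1b (0.961) and Coro1b, which encodes an actin-binding coronin (0.951). Abcb1b, like Col8a1, was higher at P15 than at P0 to P2 in T cell medium. It was there at 5.61 to 5.95 RPKM at P0 to P2 and 10.6 RPKM at P15. In cytokine medium it was at 10.3 to 11.5 RPKM at P0 to P2 and 13.4 RPKM at P15, a rise that Col8a1 did not show. The most opposite row was the Notch target Hey1 (-0.981), which was at 5.88 to 7.59 RPKM at P0 to P2 and at 1.84 RPKM at P15 in T cell medium, and at 0.534 to 1.61 RPKM in cytokine medium. Pold4, a DNA polymerase δ subunit (-0.940), and Rabl3 (-0.933) followed. Coro1b and Rabl3 differed little between the media, by log2 differences of 0.22 and -0.18, and did not pass (limma adjusted p = 0.0839 and 0.136).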

How the data were processed

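The authors deposited RPKM values with 2 columns per library. Per the submitters' processing notes, which assign no roles, TopHat2 2.0.1, HTSeq 0.5.4p2 and mm10 were used. Not given in the sources used here are the annotation, strand setting, scaling and meaning of the 2 columns. The 2 columns differed by less than the sampling noise (chi-square per row 0.545 to 0.574, where independent sampling gives about 1) and their mean was counted as 1 library. Depth came from the most frequent value of 1 read, with GENCODE vM21 exon lengths.

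Names were used for 801 rows. On each chromosome a stepwise offset between row and exon positions was fitted (grid 40 bp, up to 8 Mb). The first segment was kept where it held at least 20 rows and its offset was at most 1000 bp, a rule chosen after the data were seen. On simulated data, 2874 of 2961 rows without an offset were kept and 0 others. Levels there were drawn from the fitted model, with no offset or a random and mostly large one, and with fewer segments than the 169 fitted. Small shifts, such as the 520 bp on chromosome 8, were not simulated, so the simulation does not bear on them.

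Fits used limma 3.58.1 with trend (R 4.3.3) on log2(RPKM + 1), on all 3210 rows with a mean of at least 1 RPKM, with Benjamini-Hochberg adjustment and a threshold of 0.05. Libraries of the same passage deviated together (correlation 0.15 to 0.71 over rows), and the labels name the passage. The genes and lists were chosen with earlier results of these data known. Named genes were the 3 collagens, list members with usable names, and the 3 most and least correlated rows for each collagen. Alternatives covered pseudocount, filter, scaling, column, trend, passage term and each library or passage left out.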

Additional observations from a re-analysis of the deposited data

Results flagged for a closer look

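The Col8a1 level in T cell medium at P15, 20.5 RPKM, stood apart from the other 3 passages of that medium. Its gap to the next library was 0.874 of the range of the 4, above Dixon's critical value of 0.829, but on the log2(RPKM + 1) scale the share was 0.816, below it. The Col4a1 to Col4a2 ratio in cytokine medium at P0, 1.44, stood apart from the other 3 passages, with a gap of 0.873 of the range, and 0.860 on the log2 scale. The libraries compared are different passages, not replicates of 1 condition. In all, 8 sets of 4 libraries were checked, and about 1 in 20 such sets is expected to pass this limit without any difference.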

How the results depend on the processing

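Of 223 recomputed values over 28 results, 195 kept their direction and side of the threshold, or for single libraries stayed within the counting interval. For the ratio only the direction was compared. Many of these results had not passed to begin with. The 14 values that lost their call were all medium differences over passages of the 3 collagens, which had 13 alternatives per gene. With no filter on low values, limma called 0 of 11148 rows between the media (849 higher and 821 lower at an unadjusted p under 0.05), and the differences of -1.39 (Col4a1), -1.34 (Col4a2) and 1.41 (Col8a1) had adjusted p of 0.217, 0.217 and 0.240. The cause was not tested. With no replicate block, that is without the passage term, Col4a1 (-1.39) and Col4a2 (-1.34) had adjusted p of 0.0831 and 0.0860, and limma called 32 rows higher and 24 lower in place of 172 and 184. In the change of the difference at P15, the block changed no call of the 3 collagens, but over all rows limma called 0 rows without it in place of 7 higher (54 higher and 43 lower at an unadjusted p under 0.05). With 1 passage left out the differences ran from -1.58 to -1.25 (Col4a1), -1.52 to -1.20 (Col4a2) and 1.22 to 1.70 (Col8a1). The calls over all rows then ran from 8 to 222 higher and 2 to 258 lower. The change of the Col8a1 difference at P15 ran from -1.25 to -1.01, and its P15 difference from P0 to P2 from -0.067, without the T cell P15 library, to 1.08. The difference of the log2 Col4a1 to Col4a2 ratio ran from -0.029 to 0.019, the latter without P2.

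A pseudocount of 0.1 moved the log2 differences from F10 medium in cytokine medium to -2.76 (Col4a1), -2.51 (Col4a2) and 1.93 (Col8a1). It moved those between the media to -2.25, -2.24 and 2.09 at P1, and to -1.98 (Col4a1) and -1.88 (Col4a2) at P2. Quantile normalization gave -1.52 and -2.72 for Col4a1 against F10 medium in T cell and cytokine medium, and 0.47 for Col8a1 at P15. A smaller pseudocount widens differences of low values by construction.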
